A study of Mus musculus with 8 samples.

Results

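Open chromatin was examined by ATAC-seq at the loci of 9 genes of the NCoR and HDAC3 corepressor machinery, Ncor1, Hdac3, Tbl1x, Tbl1xr1, Gps2, Hdac1, Hdac2, Sin3a and Ppargc1b, in bone marrow-derived macrophages (BMDMs). A peak was assigned to one of these loci when the deposited annotation named the gene and placed the peak center within 100 kb of its transcription start site (TSS). This rule found 23 peaks of 34565 in the 2 deposited tables. The table of WT BMDMs held 7 of them among 9698 peaks, at Tbl1x, Tbl1xr1, Hdac1, Hdac2 and Sin3a. The table of NCoR f/f BMDMs held 16 among 24867 peaks, and all 9 genes were present there. Ncor1, Hdac3, Gps2 and Ppargc1b had no peak under their names in the WT table, so that no change with treatment could be tested for them.

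The cells were of the C57Bl6 strain and were profiled in 4 groups of 2 libraries, all labelled with a time of 6 h. The groups were WT at Veh, WT treated with KLA, WT treated with RGFP966 and KLA, and NCoR1 flox/flox at Veh. KLA (Kdo2 lipid A) is a bacterial lipid that activates the receptor TLR4, and RGFP966 is an inhibitor of HDAC3. By the methods of the study, cells received the inhibitor ahead of KLA, when their serum was lowered. The 6 h are therefore not the time with the inhibitor. The flox/flox cells carry a conditional Ncor1 allele, and their labels name no Cre. For the RGFP966 + KLA libraries the sample titles name RGFP966, whereas the treatment entry names KLA alone. The labels do not say whether the 2 libraries of a group came from separate mice or cultures. The p-values below therefore apply to these libraries only. The dispersion fitted by edgeR, the spread beyond counting error, was near 0. Its common value was 0.0052 for peaks and 0.00349 for sums per gene, so that the edgeR p-values and intervals rest largely on counting error. The NCoR f/f libraries bear another date than the WT libraries and were counted on other peaks, and therefore levels were not compared by a test between the tables.

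NCoR is a large scaffold protein that nuclear receptors and other DNA-bound factors use to recruit repression to their target genes. Its deacetylase activating domain binds HDAC3 and switches on the enzyme, and TBL1X, TBL1XR1 and GPS2 complete the core of the complex. HDAC1 and HDAC2 are related class I deacetylases that work in other corepressor complexes, among them the one built on the scaffold SIN3A, while PGC1β, encoded by Ppargc1b, is a coactivator of nuclear receptors. In resting macrophages NCoR complexes are known for holding inflammatory and lipid genes in check.

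The sequences below belong to promoters and peaks named in the results. They are the promoters of genes of the scaffold, core subunit and deacetylase groups, from 200 bases before to 30 bases after the TSS on the strand of the gene, and the central 200 bases of 3 WT peaks. They come from the RefSeq assembly GRCm38.p6, which has the coordinates of mm10, the build of the deposited tables. Capitals mark matches, on either strand, to 12 short motifs: NF-kB GGNNNTTCC, AP-1 TGANTCA, PU.1 GAGGAAGT, C/EBP TTGCNNAA, CRE TGACGTCA, ETS CCGGAAG, NRF1 GCGCATGCG, SP/KLF GGGCGG, NF-Y CCAAT, E-box CACGTG, YY1 AAGATGGC and IRF GAAANNGAA.
Ncor1 promoter (chr11:62457303-62457532, minus strand): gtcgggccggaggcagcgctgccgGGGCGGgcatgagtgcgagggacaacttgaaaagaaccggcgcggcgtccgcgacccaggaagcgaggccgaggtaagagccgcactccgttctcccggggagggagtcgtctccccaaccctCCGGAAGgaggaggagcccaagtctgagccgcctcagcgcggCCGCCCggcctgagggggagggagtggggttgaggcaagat
Gps2 promoter (chr11:69913820-69914049, plus strand): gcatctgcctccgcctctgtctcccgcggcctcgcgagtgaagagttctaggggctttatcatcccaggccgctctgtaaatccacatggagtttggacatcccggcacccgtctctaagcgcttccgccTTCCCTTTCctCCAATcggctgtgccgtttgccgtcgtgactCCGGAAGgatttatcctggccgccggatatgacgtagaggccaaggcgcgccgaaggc
Hdac1 promoter (chr4:129542617-129542846, minus strand): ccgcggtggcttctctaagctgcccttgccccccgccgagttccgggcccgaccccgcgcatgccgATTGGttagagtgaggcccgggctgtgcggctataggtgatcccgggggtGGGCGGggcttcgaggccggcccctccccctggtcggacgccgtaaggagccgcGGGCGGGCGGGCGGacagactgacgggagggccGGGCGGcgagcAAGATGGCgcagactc
Hdac2 promoter (chr10:36974344-36974573, plus strand): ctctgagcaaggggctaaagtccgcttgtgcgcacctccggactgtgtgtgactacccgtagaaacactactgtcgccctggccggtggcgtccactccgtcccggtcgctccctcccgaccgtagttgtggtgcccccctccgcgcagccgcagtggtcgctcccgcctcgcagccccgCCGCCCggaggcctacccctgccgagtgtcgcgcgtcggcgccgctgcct
Tbl1xr1 promoter (chr3:22076452-22076681, plus strand): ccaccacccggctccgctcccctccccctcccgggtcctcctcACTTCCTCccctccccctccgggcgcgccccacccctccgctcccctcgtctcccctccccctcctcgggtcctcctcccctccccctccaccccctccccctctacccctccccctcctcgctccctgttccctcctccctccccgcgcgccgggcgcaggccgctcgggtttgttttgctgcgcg
Tbl1xr1 -3385 peak center (chr3:22073167-22073366, plus strand): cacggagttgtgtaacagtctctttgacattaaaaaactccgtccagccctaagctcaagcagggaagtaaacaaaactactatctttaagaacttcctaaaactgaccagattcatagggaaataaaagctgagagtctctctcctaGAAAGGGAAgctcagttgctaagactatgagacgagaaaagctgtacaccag
Tbl1xr1 -66512 peak center (chr3:22010040-22010239, plus strand): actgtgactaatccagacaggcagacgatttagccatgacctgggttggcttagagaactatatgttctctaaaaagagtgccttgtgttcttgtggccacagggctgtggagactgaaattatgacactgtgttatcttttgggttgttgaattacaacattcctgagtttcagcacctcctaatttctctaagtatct
Sin3a +1601 peak center (chr9:57073541-57073740, plus strand): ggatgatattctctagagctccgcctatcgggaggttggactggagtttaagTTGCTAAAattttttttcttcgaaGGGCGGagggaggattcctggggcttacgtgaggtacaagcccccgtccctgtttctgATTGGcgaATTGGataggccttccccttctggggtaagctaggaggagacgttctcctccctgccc

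The Ncor1 and Gps2 promoters each held an ETS match, the Ncor1 promoter held 2 SP/KLF matches besides, and the Gps2 promoter held an IRF and an NF-Y match side by side. The Hdac1 promoter had 7 matches, 5 of them SP/KLF, of which 3 overlapped each other just before the TSS. The Tbl1xr1 promoter was a pyrimidine-rich stretch with a single PU.1 match. This stretch lies within the NCoR f/f promoter peak but begins past the end of the WT promoter peak at -446 bp. That WT peak held 1 SP/KLF match and no PU.1 match. The -3385 peak of Tbl1xr1 had a single IRF match, and the -66512 peak had none of the 12 motifs. A match is a description of these letters and not a bound site.

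The macrophage label was checked first. All 10 macrophage marker genes, among them Csf1r and Spi1, had peaks in the NCoR f/f table, whereas 5 of 10 had one in the shallower WT table, and no B cell, erythroid or fibroblast marker had a peak in either. Of the markers of other cells, 1 of 4 neutrophil and 2 of 2 dendritic cell genes had peaks in both tables, and 1 of 3 T cell genes, Cd3d, had one in the NCoR f/f table, with 1.37 to 3.49 tags per 100000. WT libraries held between 116733 and 202523 tags in peaks, and the NCoR f/f libraries held 372367 and 509741. Levels are therefore given as tags per 100000 tags in peaks of the library, and 95% Wilson intervals cover counting error only. Since each library pools many cells, fewer cells with an open site and less opening in each cell cannot be told apart.

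At Veh in NCoR f/f BMDMs, the promoters of the scaffold and of its enzyme were open at a middle level. The Ncor1 peak lies 16 bp after the start of the transcript NM_177229 (mm10 chr11:62457171-62457461), the upstream one of 2 annotated Ncor1 starts. It had 17 and 12 tags in the 2 libraries, or 4.57 (95% Wilson interval, 2.85 to 7.31) and 2.35 (1.35 to 4.12) per 100000, and these intervals overlap. The Hdac3 peak (chr18:37954870-37955159) was centered at -26 bp and had 13 and 16 tags, or 3.49 and 3.14 per 100000. The Hdac3 peak also lies beside the start of the divergent neighbor Rell2, to whose promoter the deposited annotation assigns it, so that the tags of the 2 promoters are not separated. Both peaks were close to the median of all 24867 peaks, which was 3.28, and below that of the 11828 promoter peaks (within 2 kb of a TSS), which was 4.04 per 100000.

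The core subunits differed in how many peaks they had. Gps2, which encodes the small subunit that links NCoR to TBL1X, had 1 promoter peak with 17 and 17 tags, or 4.57 and 3.34 per 100000. Tbl1x, an X-linked gene for a WD40-repeat subunit, had a promoter peak with 17 and 17 tags and a distal peak at -77433 bp with 5 and 11 tags. Tbl1xr1, which encodes the closely related subunit TBL1XR1, had 4 peaks, at -66605, -3315, -187 and +761 bp. Its promoter peak at -187 bp spanned 1023 bp and had 41 and 55 tags, or 11.0 and 10.8 per 100000, above 97.3% of all peaks in tags. Per length it was ordinary, with 10.7 ± 0.152 tags per 100000 and kb (SD, n = 2), above 47.8% of all peaks. The other Tbl1xr1 peaks had 3 and 7 tags at -66605 bp and 9 and 15 tags at each of -3315 and +761 bp.

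The deacetylases outside the NCoR core had the densest peaks of the 9 loci. The Hdac1 promoter peak had 29 and 36 tags, or 7.79 and 7.06 per 100000. Hdac2 had 2 peaks on either side of its TSS, with 20 and 31 tags at -283 bp and 17 and 19 tags at +14 bp. Sin3a had 3 peaks, with 17 and 30 tags at +489 bp, 19 and 28 tags at +1041 bp and 21 and 44 tags at +1656 bp. These distances are not from the same start. The +1041 and +1656 peaks are placed from the upstream Sin3a start at 57072040. The +489 peak is placed from the downstream start at 57076376, and so lies downstream of the +1656 peak. The deposited annotation assigns the +489 peak to the promoter of the noncoding transcript NR_152107. Of the Sin3a peaks, the +1656 peak differed most between the libraries, 5.64 against 8.63 per 100000. Ppargc1b had a single peak at -1452 bp (chr18:61401720-61402047), with 6 and 13 tags or 1.61 and 2.55 per 100000, and no peak under its name at its TSS.

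Ordered by tags per 100000 and kb, the Hdac2 -283 peak came first with 26.4 ± 2.32 (SD, n = 2), followed by the Hdac1 promoter with 24.9 ± 1.72 and the Sin3a +1656 peak with 21.1 ± 6.26. They were above 95.3%, 94.4% and 90.5% of all peaks per length. Gps2 stood at 15.9 ± 3.51, Ncor1 at 11.9 ± 5.37 and Hdac3 at 11.4 ± 0.858, and the Ppargc1b peak at 6.34 ± 2.02 was above 14.6% of all peaks. The lowest was the distal Tbl1xr1 peak at -66605 bp with 4.66 ± 1.71. Of the 15 pairs of neighbors in this order, 14 had overlapping libraries. The only gap fell between the Tbl1x promoter, with 10.8 and 7.87, and the Ppargc1b peak, with 4.91 and 7.77 per 100000 and kb.

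**Figure D1:**
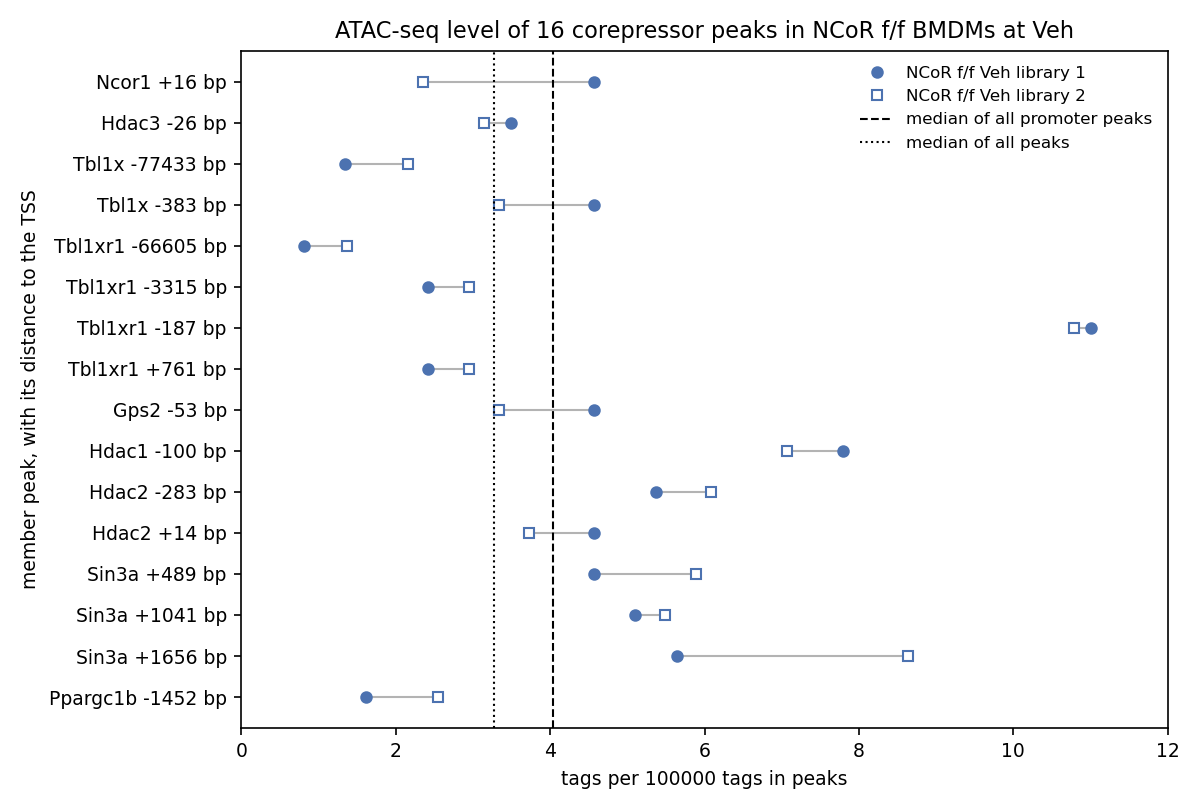
Tags per 100000 tags in peaks (x axis) of the 16 peaks at the corepressor loci (y axis, with distance to the TSS) in the NCoR f/f libraries at Veh, with the filled circle for library 1, the open square for library 2 and dashed and dotted lines for the medians of all promoter peaks and of all peaks. The Tbl1xr1 promoter stands alone near 11.0, and the Ncor1 and Hdac3 peaks lie around the medians.

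These peaks were mostly promoters, and 13 of 16 (81.2%) lay within 2 kb of a TSS, against 47.8% of all NCoR f/f peaks with an annotated TSS. The 13 promoter peaks had a median of 4.15 tags per 100000, against 4.04 for all promoter peaks, and a median GC content of 71.5% against 65.5% in the central 200 bp. An SP/KLF match was found in the central 200 bp of 9 of these 13 (69.2%) and in 62.4% of all promoter peaks. NF-kB matches were found in 1 of the 16 peaks, the distal peak of Tbl1x, and in 16.6% of all peaks. None of the 13 promoter peaks held an AP-1 or a C/EBP match in this window, which 4.61% and 5.37% of all promoter peaks held. Of the 7 WT peaks, 1 held a C/EBP match, at Sin3a. PU.1 matches were found in 2 of the 13 promoter peaks, both at Tbl1xr1, against 3.27% of all promoter peaks. For each merged peak the table lists the conditions in which it was found, including cells without NCoR, whose tags were not analysed here. The Ncor1, Hdac3, Gps2 and Tbl1x promoter peaks were listed for NCoR f/f cells and not for cells without NCoR, as were the Ppargc1b peak and the +761 peak of Tbl1xr1, and 3 peaks, at Hdac1, Tbl1xr1 and Sin3a, were listed for all 4 conditions. Of the 16 peaks, 56.2% were in the set of NCoR-deficient cells with KLA and 25.0% in that at Veh, against 57.7% and 32.1% of all peaks. For the 13 promoter peaks the shares were 46.2% and 30.8%, against 62.9% and 42.1% of all promoter peaks. How many of all peaks were absent from both of these sets, or listed for all 4 conditions, was not counted. Such a listing is not a test of a difference in tags.

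In WT BMDMs the question was whether the openness of these loci changed with TLR4 activation or with inhibition of HDAC3. Of the 7 member peaks, 0 passed the edgeR test with KLA against Veh (adjusted p under 0.05 and a fold change over 2), where 5.03% of all 9698 peaks passed. With RGFP966 + KLA against KLA the count was 0 of 7 against 0.34% of all peaks, and with RGFP966 + KLA against Veh it was 0 of 7 against 9.88%. At an unadjusted p under 0.05, edgeR found 1 of 7 in each comparison, where 19.5%, 13.8% and 25.4% of all peaks had such a p. DESeq2 with its own size factors called 0 of 7 in each, and also 0 of all 9698 peaks. The libraries of the groups compared did not overlap at 5, 4 and 6 of the 7 peaks, in either direction, where they did not at 47.9%, 45.8% and 54.7% of all peaks, so that such a separation of 2 libraries from 2 is common in these data. Summed per gene, Tbl1xr1 was the 1 of 5 genes that passed with KLA against Veh, where 3.64% of 6598 gene sums did. For RGFP966 + KLA against KLA and against Veh the counts were 0 of 5 in edgeR, where 0.288% and 7.81% of all gene sums passed, with 1 and 0 of 5 at an unadjusted p under 0.05, a p that 13.9% and 24.2% of all gene sums had. DESeq2 with its own size factors called 0 of 5 gene sums in each comparison, and 23, 0 and 4 of all 6598. The number of tags limits these tests, since the member peaks had between 2 and 36 tags in a library.

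**Figure D2:**
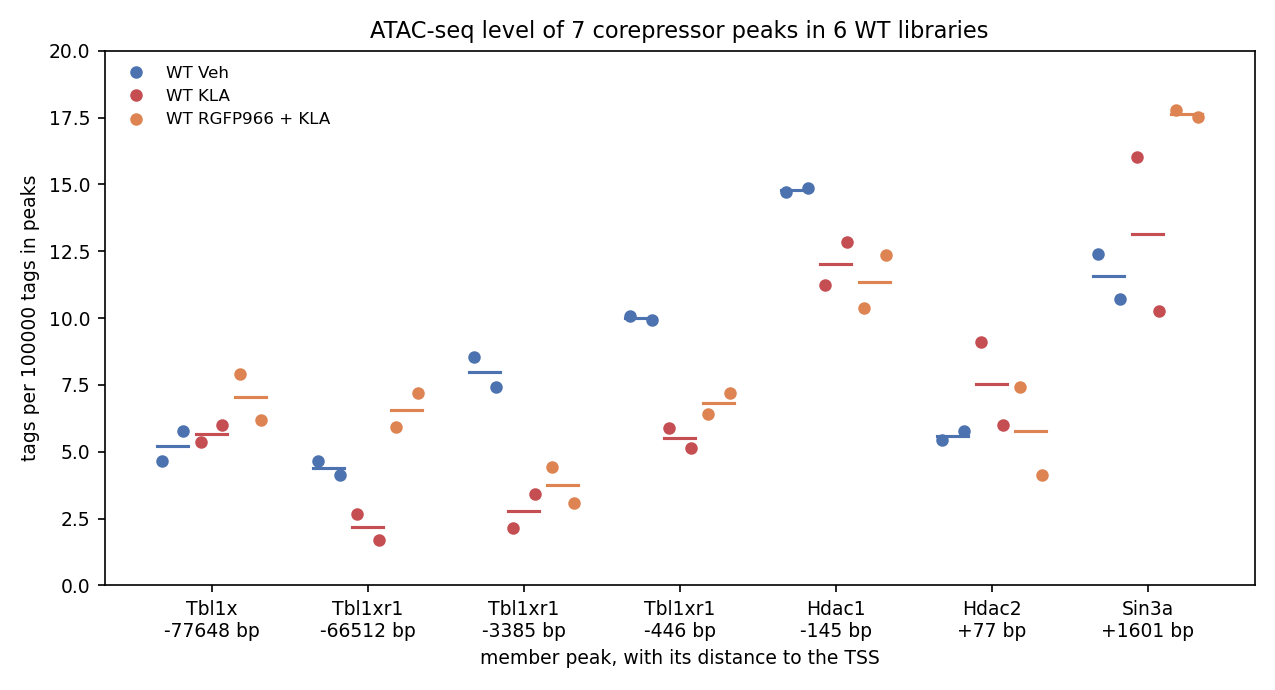
Tags per 100000 tags in peaks (y axis) of the 7 corepressor peaks in each of the 6 WT libraries, with points for libraries, short lines for the mean of 2 libraries and color for Veh, KLA and RGFP966 + KLA. At the 3 Tbl1xr1 peaks both KLA libraries lie below both Veh libraries, a kind of separation seen in either direction at 47.9% of all peaks, whereas the KLA libraries of Sin3a and Hdac2 lie far apart.

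None of the 3 Tbl1xr1 peaks passed alone, and their sum was the only member gene sum called. The peak of Tbl1xr1 at -3385 bp (chr3:22073159-22073375), which lies in an RMER15 repeat of the LTR class, had 11 and 9 tags at Veh, 4 and 4 with KLA and 9 and 6 with RGFP966 + KLA. The levels were 8.53 and 7.43 per 100000 at Veh, 2.14 and 3.43 with KLA and 4.44 and 3.09 with RGFP966 + KLA, so that the Veh libraries were the highest and the other groups overlapped. KLA against Veh was 0.336-fold (95% interval, 0.163 to 0.69, edgeR adjusted p = 0.0716), the smallest p of the 7 peaks in this comparison, and it missed the threshold.

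The promoter peak of Tbl1xr1 at -446 bp (chr3:22076011-22076402) had 13 and 12 tags at Veh, 11 and 6 with KLA and 13 and 14 with RGFP966 + KLA. In tags per 100000 these were 10.1 and 9.91, 5.88 and 5.14, and 6.42 and 7.21, with no overlap between any of the groups. The fitted ratio of KLA to Veh was 0.563 (95% interval, 0.309 to 1.03, edgeR adjusted p = 0.288).

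The distal peak of Tbl1xr1 at -66512 bp (chr3:22010001-22010280) had 6 and 5 tags at Veh, 5 and 2 with KLA and 12 and 14 with RGFP966 + KLA. The levels were 4.65 and 4.13, 2.67 and 1.71, and 5.93 and 7.21 per 100000, lowest with KLA and highest with RGFP966 + KLA, and the groups did not overlap. With RGFP966 + KLA it was 2.78-fold of its level with KLA (95% interval, 1.37 to 5.66), which was the smallest p of the 7 peaks in that comparison and did not pass (edgeR adjusted p = 0.187). This peak was listed in the RGFP966 + KLA set alone, and the 2908 peaks of that set alone had a median log2 change of 0.46 in this comparison, against 0.03 for all peaks. With RGFP966 + KLA against Veh the smallest p belonged to the -3385 peak, at 0.478-fold (95% interval, 0.257 to 0.89, edgeR adjusted p = 0.138), or a log2 change of -1.07. It was listed in the Veh set alone, and the 800 peaks of that set alone had a median log2 change of -0.94 in this comparison, with 25.6% called lower.

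Summed over the 3 peaks, Tbl1xr1 had 30 and 26 tags at Veh, 20 and 12 with KLA and 34 and 34 with RGFP966 + KLA. In tags per 100000 the sums were 23.3 and 21.5, 10.7 and 10.3, and 16.8 and 17.5, and the 3 groups did not overlap. With KLA against Veh the groups did not overlap, in either direction, at 47.0% of all 6598 gene sums. With RGFP966 + KLA the shares were 44.7% against KLA and 53.1% against Veh. The sum fell with KLA, from 22.4 ± 1.27 to 10.5 ± 0.293 (SD, n = 2 each), or to 0.472-fold (95% interval, 0.307 to 0.726, edgeR adjusted p = 0.0254). With RGFP966 + KLA it was 17.2 ± 0.508, or 1.62-fold of KLA (95% interval, 1.07 to 2.46, edgeR adjusted p = 0.268) and 0.766-fold of Veh (95% interval, 0.533 to 1.10, edgeR adjusted p = 0.385), and neither difference passed. The call with KLA was lost in DESeq2 with its own size factors (adjusted p = 0.591) and when any 1 of the 4 libraries compared was left out, which gave edgeR adjusted p-values of 0.182 and 0.0914 without Veh library 1 or 2 and 0.193 and 0.0973 without KLA library 1 or 2. In these fits 1 group holds a single library, which is assumed to vary as the other groups do. The log2 change kept its sign in all 17 alternatives, between -1.31 and -1.02.

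**Figure D3:**
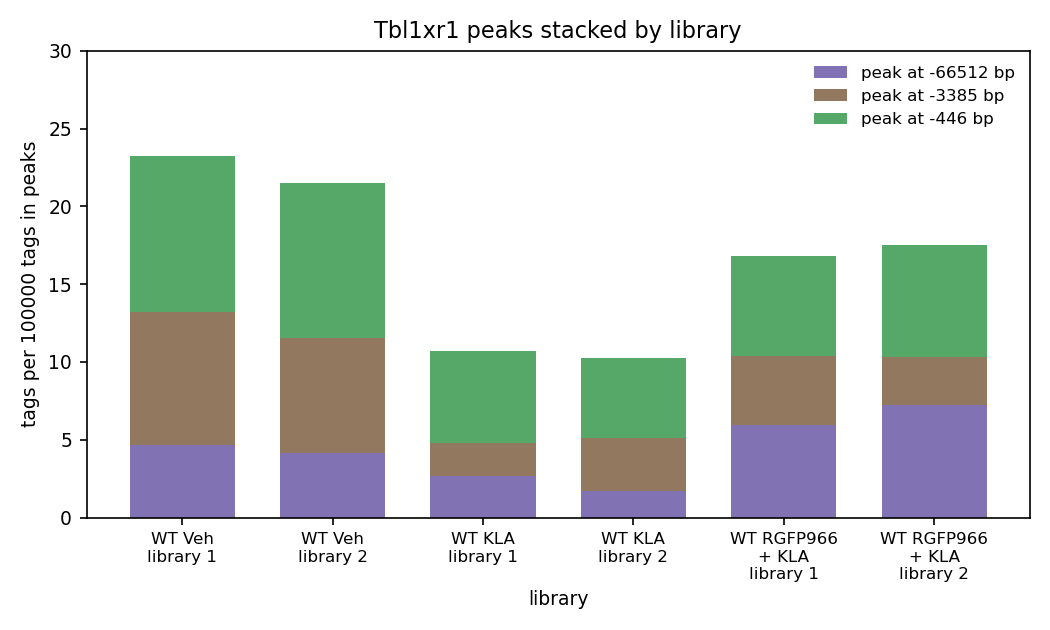
Tags per 100000 tags in peaks (y axis) of the 3 Tbl1xr1 peaks, stacked for each WT library (x axis), with color for the distance of the peak to the TSS. The KLA libraries sum to 10.7 and 10.3, the RGFP966 + KLA libraries to 16.8 and 17.5 and the Veh libraries to 23.3 and 21.5.

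The -3385 peak was listed in the Veh set of peaks alone, the -446 and -66512 peaks in the RGFP966 + KLA set alone, and none of the 3 in the KLA set. Among all 800 WT peaks of the Veh set alone, the median log2 change with KLA was -0.81 and 12.4% were called lower. Among all 2908 peaks of the RGFP966 + KLA set alone, to which the other 2 belong, the median was 0.16 and 0.241% were called lower. Of the 2577 genes that had no peak in the KLA set, as Tbl1xr1, 3.14% were called lower with KLA and 0.737% higher, with a median log2 change of -0.24. Marker loci moved between the groups as well. The summed level of the 5 macrophage markers with a peak was 66.1 to 66.7 per 100000 at Veh, 41.1 to 58.8 with KLA and 53.0 to 62.2 with RGFP966 + KLA. The 2 dendritic cell markers, Flt3 and Zbtb46, had a summed level of 16.51 to 24.04 at Veh, 10.7 to 13.7 with KLA and 6.69 to 7.9 with RGFP966 + KLA, and Camp, the 1 of 4 neutrophil markers with a peak, had 3.1 to 4.13 at Veh, 10.3 to 11.8 with KLA and 15.8 to 17.0 with RGFP966 + KLA. Their part in the Tbl1xr1 result was not tested.

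The class I deacetylases did not pass in any comparison. The Hdac1 promoter peak at -145 bp (chr4:129542647-129542935), the only member peak found in all 3 sets, had 19 and 18 tags at Veh, 21 and 15 with KLA and 21 and 24 with RGFP966 + KLA. The levels were 14.7 and 14.9, 11.2 and 12.9, and 10.4 and 12.4 per 100000, so that both Veh libraries lay above the other 4, which overlapped. KLA against Veh was 0.803-fold (95% interval, 0.505 to 1.28, edgeR adjusted p = 0.674), and RGFP966 + KLA against Veh was 0.768-fold (95% interval, 0.493 to 1.20, edgeR adjusted p = 0.484).

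The Hdac2 promoter peak at +77 bp (chr10:36974489-36974754), found in the KLA set alone, had 7 and 7 tags at Veh, 17 and 7 with KLA and 15 and 8 with RGFP966 + KLA. The first library of each treated group was the higher one, with 9.09 against 6.00 per 100000 for KLA and 7.41 against 4.12 for RGFP966 + KLA, and the Veh libraries, with 5.43 and 5.78, lay below both KLA libraries and between those of RGFP966 + KLA. KLA against Veh was 1.41-fold (95% interval, 0.732 to 2.70, edgeR adjusted p = 0.628) and RGFP966 + KLA against KLA was 0.736-fold (95% interval, 0.415 to 1.31, edgeR adjusted p = 0.669).

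The Sin3a peak at +1601 bp (chr9:57073401-57073881) lies in the first intron of the long transcript NM_001110351. It had 16 and 13 tags at Veh, 30 and 12 with KLA and 36 and 34 with RGFP966 + KLA, or 12.4 and 10.7, 16.04 and 10.3, and 17.8 and 17.5 per 100000. Both RGFP966 + KLA libraries lay above all others, and the KLA libraries spanned those at Veh. RGFP966 + KLA against Veh was 1.52-fold (95% interval, 0.979 to 2.35, edgeR adjusted p = 0.222) and against KLA 1.28-fold (95% interval, 0.858 to 1.90, edgeR adjusted p = 0.607).

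The only Tbl1x peak in the WT table was the distal one at -77648 bp (chrX:77433478-77433680), found in the RGFP966 + KLA set alone. It had 6 and 7 tags at Veh, 10 and 7 with KLA and 16 and 12 with RGFP966 + KLA, or 4.65 and 5.78, 5.35 and 6.00, and 7.90 and 6.18 per 100000. The RGFP966 + KLA libraries were the highest, and Veh and KLA overlapped. The fitted ratio of RGFP966 + KLA to Veh was 1.35 (95% interval, 0.72 to 2.54, edgeR adjusted p = 0.597) and that of KLA to Veh was 1.08 (95% interval, 0.533 to 2.17, edgeR adjusted p = 0.949).

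**Figure D4:**
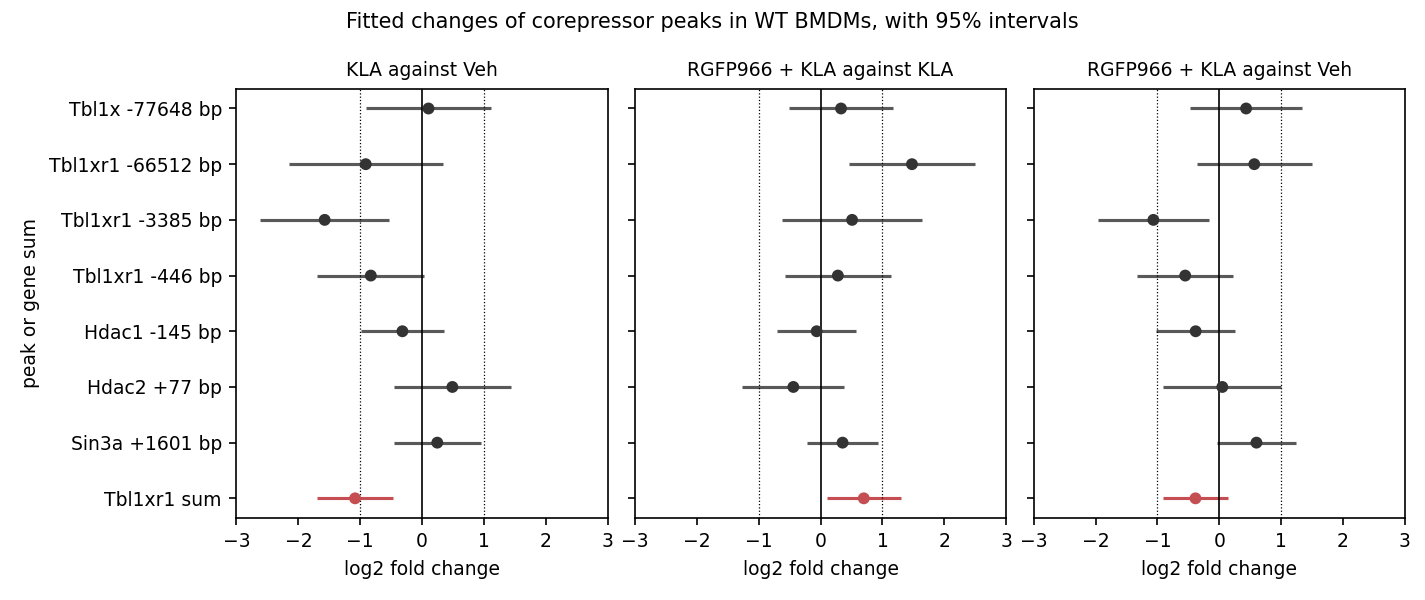
Fitted log2 fold changes (x axis) with unadjusted 95% intervals derived from the edgeR tests for the 7 corepressor peaks and the Tbl1xr1 gene sum (y axis) in the 3 comparisons of WT conditions, with dotted lines at a change of 2-fold. The estimates for the Tbl1xr1 peaks and their sum lie below 0 with KLA against Veh and above 0 with RGFP966 + KLA against KLA. The intervals of the -66512 and -446 peaks cross 0 in the first, and those of the -446 and -3385 peaks in the second. The 2 comparisons share the KLA libraries.

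Every one of the 7 member peaks in WT cells had a counterpart at the same gene in the NCoR f/f table, with an overlap of between 55 and 392 bp, whereas 9 of the 16 NCoR f/f peaks had no counterpart in the WT table. These 9 included the promoters of Ncor1, Hdac3, Gps2 and Tbl1x. The shares of all peaks with and without a counterpart were not counted. Since WT cells had fewer peaks, 9698 against 24867, neither count can be read as a trait of these loci. In the deeper table the Tbl1xr1 peaks at -66605 and -3315 bp were listed only for NCoR-deficient cells with KLA, and in the WT table for RGFP966 + KLA and for Veh, respectively. At Veh the overlapping peaks of Hdac1 had 51.0 and 51.4 tags per 100000 and kb in the WT libraries and 26.1 and 23.7 in the NCoR f/f libraries. The tables hold different numbers of peaks, so that a level relative to the tags in peaks is on another scale in each.

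Among 68 other genes of corepressor and coactivator complexes and their nuclear receptors, 57 had a peak in the NCoR f/f table and 30 in the WT table. By gene sums, 0 of these 30 passed the edgeR test in any comparison, with 6, 3 and 4 at an unadjusted p under 0.05 for KLA against Veh, RGFP966 + KLA against KLA and RGFP966 + KLA against Veh. Of all 6598 gene sums, 18.6%, 13.9% and 24.2% had such a p, and 3.64%, 0.288% and 7.81% were called. The list's median log2 changes were -0.09, -0.05 and -0.16, against 0.01, 0.02 and 0.02 for all 6598 gene sums. Of the SIN3 complex 7 of 15 genes were measured, of NuRD 7 of 9, of CoREST 3 of 6, of the other corepressors 5 of 9, of the nuclear receptors 3 of 11 and of the coactivators 1 of 9, and 1 further group is not reported here.

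At the rule's limit of 100 kb, the farthest member peaks inside it were those of Tbl1x at -77648 and -77433 bp. The nearest outside it was a peak at -123541 bp from Tbl1xr1 with 17 and 15 tags in the NCoR f/f libraries, followed by 3 more Tbl1xr1 peaks at -141715, -267868 and -442617 bp with between 3 and 15 tags.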

How the data were processed

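The deposited values are raw counts of ATAC-seq tags per merged peak and library, not normalized. By the methods of the study and the submitters' processing notes, Bowtie2 was used by the authors for mapping to mm10 and HOMER for peak calling, and reproducible (IDR) peaks of each condition were merged, annotated and counted. All per-sample columns were used. A peak found only in the condition where it is high enters the merged table through that condition.

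Member peaks were taken by gene name and distance, and the members and lists were chosen with earlier results of these data known. Tags were divided by the total tags in peaks of the library and multiplied by 100000. Changes were tested two-sided with edgeR 4.0.16 in R 4.3.3 (glmQLFit, glmQLFTest), with all 6 WT libraries in 1 model and total tags in peaks as library sizes. All 9698 peaks, or all 6598 sums of tags per gene over peaks within 100 kb, were tested if they had at least 4 tags in 1 library, and p-values were adjusted by Benjamini-Hochberg over all of them. The intervals of fold changes were derived from the log2 change and F statistic of each edgeR test. They are not adjusted for the number of tests, so that an interval can exclude 1 where the adjusted p does not pass. Peaks named are those nearest to each TSS, those called and those with the smallest p in a comparison. The tests were first tested on simulated counts. DESeq2 1.42.0 was an alternative. With 2 libraries a group, an exact permutation test of 1 peak cannot reach 0.05. Motifs were searched as strings in the central 200 bp of each peak. Figures were drawn with matplotlib 3.10.9. Other data types of the study were not analysed here, and 1 gene outside the member list is not reported here.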

Additional observations from a re-analysis of the deposited data

How the results depend on the processing

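No uncalled change of a member peak is called under TMM factors, all tags of each library as library sizes, no filter, a filter of 16 tags, a fold change of 1.5, only the 4 libraries of a comparison, DESeq2 or any library left out. The Tbl1xr1 peaks, with at most 14 tags in a library, were removed by the filter of 16 tags and not tested under it. Without a filter the same 9698 peaks were tested, so that this setting could not change a call. Loess offsets call 1 of 7 peaks with KLA against Veh and 1 of 7 with RGFP966 + KLA against Veh. In both cases it is the Tbl1xr1 -3385 peak (log2 changes of -1.88 and -1.86, edgeR adjusted p = 0.0224 and 0.00458). The count of member gene sums called with KLA against Veh is 1, and it is 0 with all tags of each library as library sizes (Tbl1xr1 adjusted p = 0.221), with DESeq2 under its own or total-tags size factors, with peaks within 10 kb (edgeR adjusted p = 0.0587) and between 0 and 1 with a library left out. All tags as library sizes move the median of all peaks to 0.21 for RGFP966 + KLA against KLA and to 0.14 against Veh on the log2 scale. The cause of these changes was not tested. Of the 21 peak and 15 gene-sum changes, 16 and 11 kept their sign in every alternative, and none that turned was called. DESeq2 with its own size factors called 0, 0 and 0 of all peaks in the 3 comparisons and with total-tags size factors 0, 0 and 1, where edgeR called 488, 33 and 958.

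Deviations of same-numbered libraries from their group means had correlations of 0.0757, 0.0353 and 0.0335 over 3402 peaks. At these tag counts the deviations are largely counting error, so that these values cannot tell whether the libraries were paired. With the replicate block, member peaks called stay at 0 and member gene sums at 1, 0 and 0, the Tbl1xr1 log2 change with KLA is -1.09 (edgeR adjusted p = 0.0199), and 558, 56 and 1036 of all peaks are called. Motif matches over whole peaks change few counts. Of the 16 NCoR f/f peaks, ETS matches are in 4 in place of 2 and IRF in 3 in place of 2. YY1 is in 2 in place of 1 and C/EBP in 1 in place of 0. Of the 7 WT peaks, ETS is in 1 in place of 0. Genes with a pattern like Ncor1 or Hdac3 were not sought, since neither has a peak in the WT table. Depth limits all of this, since 3 tags, the limit that a count of 0 allows, are 1.48 to 2.57 per 100000 in the WT libraries.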

Other observations

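Some peaks inside the member genes carry the name of another gene in the deposited annotation and were therefore not counted with them. They were looked up after the values of the member peaks were seen. The promoter of the Sin3a transcript NM_011378 holds a peak named 2700012I20Rik, a noncoding gene that starts close by on the opposite strand. It had 48 and 63 tags in the NCoR f/f libraries, and 24 and 16 tags at Veh, 31 and 15 with KLA and 32 and 27 with RGFP966 + KLA in the WT libraries. These are levels of 18.6 and 13.2, 16.6 and 12.9, and 15.8 and 13.9 per 100000, so that all groups overlapped. KLA against Veh was 0.945-fold (edgeR adjusted p = 0.93). A second peak of that name inside Sin3a had 10 and 14 tags in the NCoR f/f libraries.

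The first intron of Ppargc1b holds a peak named Mir378a, after the microRNA gene in that intron. It had 15 and 24 tags in the NCoR f/f libraries, where it was listed for all 4 conditions, in contrast to the single peak under the name of Ppargc1b. In the WT libraries it had 7 and 14 tags at Veh, 16 and 10 with KLA and 14 and 19 with RGFP966 + KLA, or 5.43 and 11.6, 8.56 and 8.57, and 6.91 and 9.78 per 100000. The groups overlapped. The fitted changes were 1.02-fold for KLA against Veh (edgeR adjusted p = 0.982) and 0.972-fold for RGFP966 + KLA against KLA. A second peak named Mir378a lay in this intron in the NCoR f/f libraries, 1348 bp after the Ppargc1b TSS. It had 5 and 10 tags and was listed for NCoR f/f cells with KLA alone.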
